A study of Rattus norvegicus with 2 samples.

Results

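The genes described here encode the subunits of the mitochondrial respiratory chain, the enzyme complexes I to IV, and of ATP synthase, complex V. The rule that chose them uses gene names and no measured value, though the members were chosen with earlier results of these data known. It takes the rat RefSeq symbols of the Nduf a, b, c, s and v series, Sdha to Sdhd, the Uqcr series, Cox4 to Cox8 and the Atp5 series. Of 16581 named genes with a probe on the array, 79 had such a name, and 78 of these were well above background on both arrays, out of 13428 genes of any kind that were. The 78 comprised 34 genes of complex I, 4 of complex II, 8 of complex III, 16 of complex IV and 16 of complex V. The name rule also took in 1 transcribed pseudogene, Cox6c-ps1, and the gene of the ATPase inhibitor, Atp5if1.

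Complexes I and II pass electrons from NADH and succinate to ubiquinone, complex III passes them on to cytochrome c, and complex IV (cytochrome c oxidase) passes them to oxygen. The proton gradient built up on the way drives complex V, which makes ATP. Neurons take most of their ATP from this chain, and several complex IV subunits exist as a form found in most tissues and a second form typical of heart and skeletal muscle, lung or testis.

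RNA was taken from the NTS (nucleus of the solitary tract), the dorsal medullary nucleus in which baroreceptor and other visceral afferents end, in spontaneously hypertensive rats (SHR). The male group was 5 male SHR and the female group 5 female SHR, all 9 weeks old and with no treatment named in the labels; no strain with normal blood pressure was part of the design. From each rat 100 ng of RNA went into 1 pool per sex, and each pool was hybridised to 1 Agilent array with a single dye, Cy3. A single array for each sex leaves the spread between rats or pools unknown, so the values below carry no test and no p-value.

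Values are given as scaled signal, the processed spot intensity after each array's 75th percentile was set to 100, and as female minus male differences on the log2 scale. A gene counted as different when it was at least 1.5-fold brighter on 1 array. A probe's brightness depends on its own binding as well as on its transcript, so signals were compared between the arrays for the same gene and not between genes. In bulk tissue, fewer cells of a type and less RNA per cell cannot be told apart.

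As a check of the sex labels, the Y-linked gene Eif2s3y gave 22.4 in males and stayed below the detection limit (not well above background) in females. The Y-linked gene Ddx3y had 1 probe at 6.94 male that was not well above background in females, but another at 24.3 male and 10.2 female, well above background on both arrays. The noradrenergic genes Dbh (399 male, 381 female) and Th (602 male, 532 female) and the hindbrain genes Hoxb4 (70.4 male, 73.0 female) and Hoxb5 (89.8 male, 100.1 female) were measured on both arrays. Of the 9 measured NTS and dorsal medulla markers the widest difference was that of Gcg, the preproglucagon gene of a group of NTS neurons, at 43.9 male and 30.3 female, 1.45-fold. Markers of several cell types differed between the pools. Of 15 measured choroid plexus markers 13 were brighter on the female array by 1.5-fold or more (summed scaled signal 1137 male, 10149 female; without Ttr, 520 male and 824 female), and of 7 erythroid markers 6 were brighter on the male array by 1.5-fold or more (summed signal 2651 male, 1619 female). Of 9 meningeal and connective tissue markers Igfbp2, Slc47a1 and Igf2 were past 1.5-fold on the female side and Col1a2 on the male side.

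The respiratory chain genes were nearly equal in the 2 pools. Of 78 genes, 76 lay within 1.1-fold and 56 differed by less than 5%. At 1.5-fold, 1 gene (Cox8b) was higher on the female array, where the share over all 13428 genes was 1.5%, and no gene was higher on the male array, where that share was 0.797%. Over all genes 30.3% were past 1.1-fold in either direction. Of the brightest 25% of genes, which held 72 of the 78, 11.4% were past it. Without Cox8b the differences of the other 77 genes ran from -0.22 to 0.086, with an SD over genes of 0.052. With Cox8b kept the SD was 0.16. Over the brightest 25% of all genes, with no gene left out, the SD was 0.13, and 0.417% were past 1.5-fold in either direction. At a threshold of 25% brighter the family again had 1 gene on the female side and none on the male side (5.09% and 3.05% of all genes), and so it did at 2-fold (0.402% and 0.149%, 0.551% in either direction). With normexp background correction or none, however, Cox8b was under 2-fold and no gene was past it. These counts describe how alike the pools were for this set; they were not tested.

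**Figure D1:**
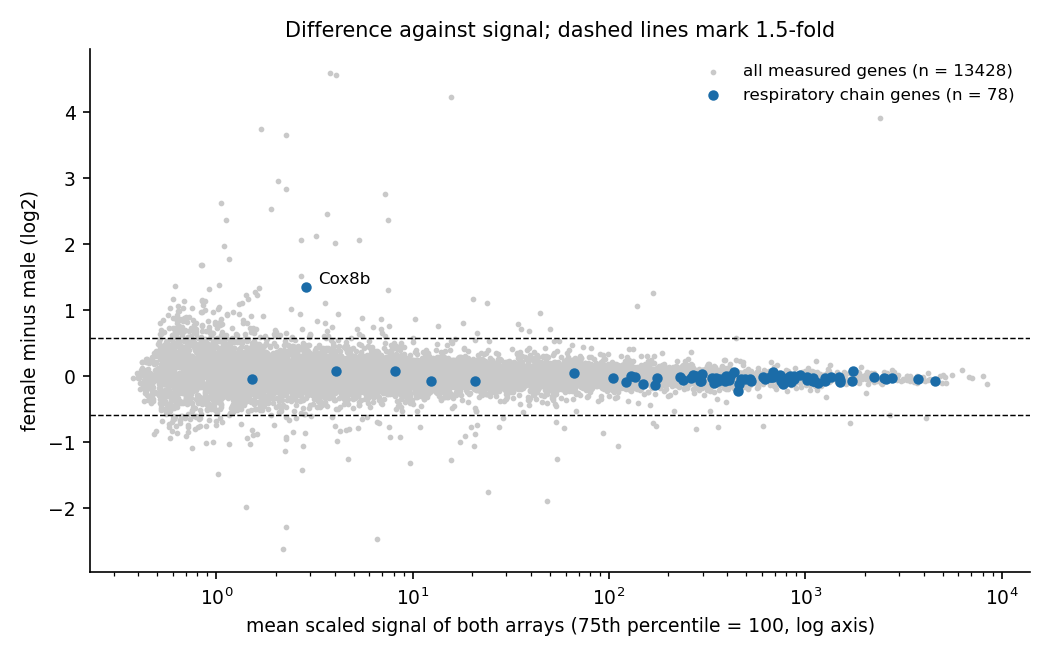
Female minus male difference (log2) of every measured gene (grey, n = 13428) and of the respiratory chain genes (blue, n = 78) against the mean scaled signal of the 2 arrays on a log axis; the dashed lines mark 1.5-fold. The blue points lie in a narrow band near 0, mostly above a signal of 100, and Cox8b stands apart at 1.35 among the dim genes, where the grey points also spread most.

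The precision of these small differences can be read from repeated spots and repeated probes. The c subunit gene Atp5mc2 had 1 probe printed many times: its 9 usable spots gave a difference of -0.068 ± 0.029 (SD over spots), from -0.12 to -0.022. For Atp5mf, a subunit of the membrane part of ATP synthase, 2 spots gave -0.038 ± 0.011 (SD over spots). Over all 1126 probes of the brightest 25% with at least 8 spots the median spot SD was 0.038, and 64 of the 78 genes had a difference smaller than 2 such SDs. This spot error leaves out rats, pools, labelling and arrays. The scanner software's own error of a difference was larger, with a median of 0.20, and 76 of the 78 genes lay within it; the exceptions were Cox8b and Cox6b2.

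Of the 78 genes 20 were read by more than 1 measured probe. In 19 of them the probes differed from each other by less than 0.2 in their female minus male difference, with a median range of 0.047 over the 20. The exception was Ndufa4l2, whose 2 dim probes gave 0.34 and -0.41. Uqcrq, a small subunit of complex III, had 1 probe at 1634 male and 1672 female (0.033) and another at 32.3 male and 31.3 female (-0.047), so its probes lay on opposite sides of 0. Probes of Ndufb4, Ndufv3, Atp5mc2, Atp5mk and Atp5pd also lay on both sides of 0.

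**Figure D2:**
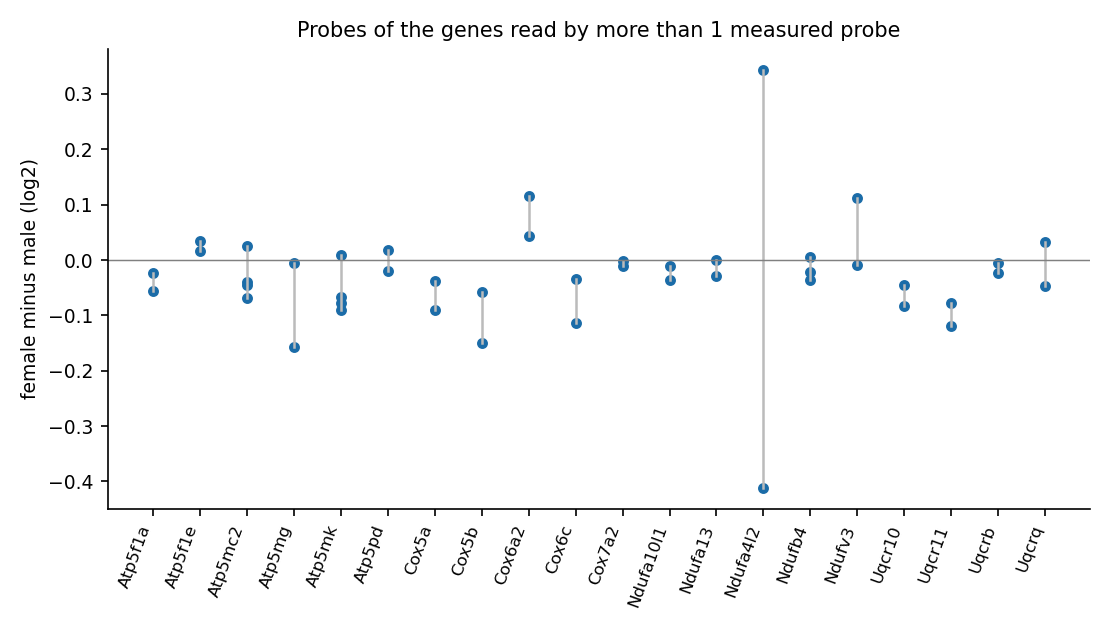
Female minus male difference (log2, vertical axis) of each measured probe of the 20 genes read by more than 1 probe (horizontal axis); each point is a probe and a grey line joins the probes of a gene. All genes but Ndufa4l2, at 0.34 and -0.41, have their probes within 0.2 of each other.

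On this scale 62 of the 78 genes (79.5%) were lower on the female array, against 44.5% of all measured genes and 52.9% of the brightest 25%. The median was -0.034, a 1.02-fold difference, against 0.016 over all genes and -0.0047 over the brightest 25%. The direction hangs on how the arrays are scaled. With centring on the spike-in controls (added once the data had been seen), the median of the family was 0.032. In that setting 19 of 78 were lower on the female array, beside 23.4% of all genes. All genes moved by the same step, to a median of 0.082. The family stood below the median of all genes by 0.050 under both scalings, by 0.018 after quantile normalization and by 0.017 after loess scaling. The precision of the shift of the whole family cannot be given from 1 array per sex.

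Among the complexes, the median difference was -0.026 for complex I, 0.0031 for complex II, -0.034 for complex III, -0.068 for complex IV and -0.039 for complex V. The middle 50% of genes ran from -0.047 to -0.012 in complex I, from -0.082 to -0.0065 in complex IV and from -0.061 to -0.022 in complex V, so the complexes overlapped. Genes lower on the female array numbered 27 of 34, 2 of 4, 7 of 8, 13 of 16 and 13 of 16 in that order. No difference between complexes was tested, and their medians lay within 0.071 of each other.

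**Figure D3:**
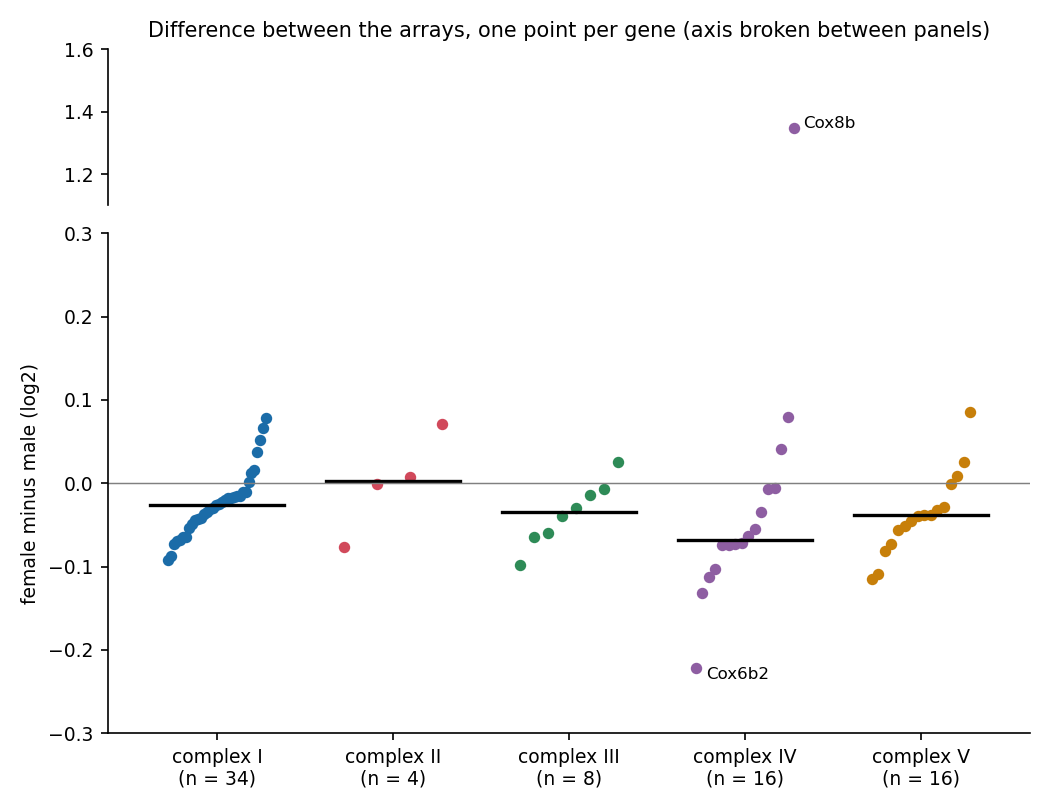
Female minus male difference (log2, vertical axis, broken between the panels) of each measured gene by complex; points are genes, spread sideways in order of their value, and black bars are the medians. The medians lie between -0.068 (complex IV) and 0.0031 (complex II), and Cox8b, at 1.35, is the only point in the upper panel.

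Complex I is the largest complex of the chain and the entry point for electrons from NADH. Its 7 core subunits encoded in the nucleus, which hold the flavin and iron-sulphur centres, ran from -0.065 to 0.037 with a median of -0.025, and the other 27 genes from -0.092 to 0.078 with a median of -0.027. Ndufv1, which binds NADH and the flavin, gave 686 male and 681 female. Its partner Ndufv2 was at 872 and 847, 1.03-fold higher on the male array. The 2 flavoprotein genes thus differed little between the pools.

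Ndufs1, the largest iron-sulphur subunit, was at 297 male and 284 female, the widest difference of the core at -0.065. Ndufs3 gave 338.5 male and 333.8 female. Ndufs7, which carries the last iron-sulphur centre before ubiquinone, was the 1 core gene brighter on the female array, at 293 male and 301 female. Ndufs8 lay at 105 male and 103 female. All 7 core genes differed by less than 5%.

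Of the other complex I genes, the lowest on the female array were Ndufa6 (877 male, 823 female, -0.092), Ndufa9 (125 male, 118 female, -0.088) and Ndufs4 (12.7 male, 12.04 female, -0.073). Ndufa6 and Ndufs4 encode accessory subunits, and Ndufa9 a subunit near the ubiquinone site. The highest were Ndufa10 (7.89 male, 8.33 female, 0.078), Ndufb10 (671 male, 703 female, 0.067) and Ndufv3 (64.8 male, 67.2 female, 0.052). The 2 Ndufv3 probes gave 0.11 and -0.0081. Averaged over its probes, each gene named here lay within 1.07-fold. The table of names also has a gene Ndufa10l1, at 264 male and 260 female; where 2 genes are so alike, their probes may read both.

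Complex II, succinate dehydrogenase, also works in the tricarboxylic acid cycle and is encoded wholly in the nucleus. Its flavoprotein gene Sdha was at 395 male and 397 female. The iron-sulphur subunit gene Sdhb was at 302 male and 286 female, -0.077. The membrane anchor gene Sdhc was at 277 on both arrays, and the second anchor gene Sdhd was at 423 male and 444 female, 0.071. The 4 genes therefore went both ways around a median of 0.0031.

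Complex III holds 2 core proteins, the Rieske iron-sulphur protein and small subunits beside the cytochromes. The core protein genes went opposite ways, with Uqcrc1 at 294.5 male and 287 female, and Uqcrc2 at 265 male and 270 female. Uqcrfs1, the Rieske protein gene, was at 355 male and 348 female. None of these 3 was past 1.03-fold.

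The small subunit gene Uqcr11 had the lowest difference of the complex, at 355 male and 331 female (-0.099), and its 2 probes gave -0.12 and -0.078. Uqcr10 was at 1768.5 male and 1691 female, -0.064. Uqcrh, the hinge protein that helps cytochrome c bind, was at 1087 male and 1043 female, -0.059. Uqcrb (136 male, 135 female) and Uqcrq (230 male, 229 female) were within 1.01-fold. Genes of core and small subunits alike were among the 7 lower on the female array.

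Complex IV reduces oxygen to water. Its catalytic core is encoded in mitochondrial DNA, and the genes measured here belong to the surrounding subunits, which include all the tissue forms. Cox5b was at 1207 male and 1123 female, -0.10, with probes at -0.057 and -0.15. Cox5a was at 771 male and 738 female, -0.064. Cox7c was at 155 male and 143 female, -0.11. These subunits have a single form, and all were slightly dimmer on the female array.

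Cox6c was at 1294 male and 1229 female, -0.074. The pseudogene Cox6c-ps1 had 1 measured probe, at 180 male and 164 female (-0.13), and another probe not well above background on either array; its sequence resembles Cox6c, so the measured probe may read Cox6c transcripts. Cox7a2l, which encodes a factor that joins complexes III and IV in supercomplexes, was at 1125 male and 1071 female. Cox7b was at 682 male and 702 female, 0.041, the highest difference in complex IV after Cox8b and Cox6a2.

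The tissue isoforms were compared with their partners of most tissues. Cox8b, the heart and muscle form of the smallest subunit, went from 1.79 in the male pool to 4.55 in the female pool, a difference of 1.35 or 2.55-fold. Its partner Cox8a was at 2605 male and 2544 female, 1.02-fold. So 1 form differed between the pools while the other was nearly equal. Cox8b was read by 1 probe with 1 spot on each array, well above background on both, with a software error of 0.21 for the difference. It lay in the dimmest 25% of genes, where the SD of the difference over genes was 0.36 and 5% of 3357 genes were past 1.5-fold on the female side; 19 of these dim genes, Cox8b included, reached its difference. Its difference was 0.66 with normexp background correction and 0.86 with no background correction.

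**Figure D4:**
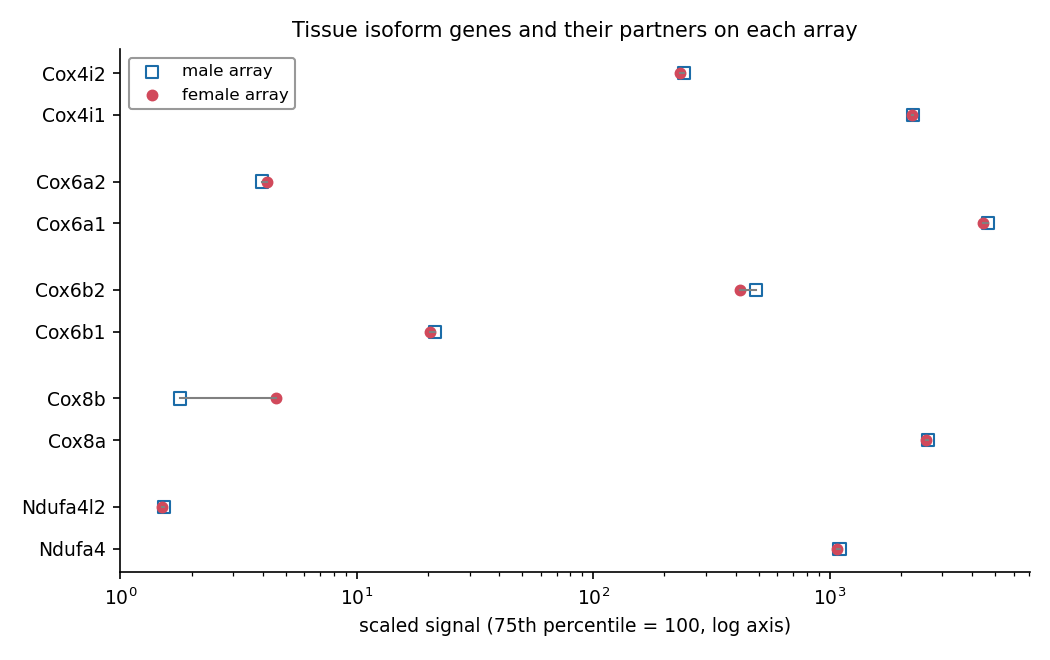
Scaled signal (horizontal log axis, 75th percentile of each array at 100) of 5 tissue isoform genes, each above its partner of most tissues, on the male (open squares) and female (filled circles) array, with the legend in a box. Cox8b moves from 1.79 to 4.55, whereas the other 9 genes have their 2 symbols close together, the widest being Cox6b2 at 488 and 419. The Ndufa4l2 symbols are averages of 2 probes that disagreed, with differences of 0.34 and -0.41.

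The start regions of this pair are shown because the pair differed most between the pools within 1 subunit. Both are the 250 bases before the annotated start, from RefSeq on build GRCr8, on the minus strand, printed 5′ to 3′. Cox8a lies at chr1:213833624-213833873 and Cox8b at chr1:205408274-205408523. In the Cox8a region capitals mark both matches to CTTCCGG, the reverse complement of the ETS motif CCGGAAG. In the Cox8b region they mark both matches to the E-box CAGCTG and the match to TATAAA, letters that were chosen after the sequence was seen.
Cox8a: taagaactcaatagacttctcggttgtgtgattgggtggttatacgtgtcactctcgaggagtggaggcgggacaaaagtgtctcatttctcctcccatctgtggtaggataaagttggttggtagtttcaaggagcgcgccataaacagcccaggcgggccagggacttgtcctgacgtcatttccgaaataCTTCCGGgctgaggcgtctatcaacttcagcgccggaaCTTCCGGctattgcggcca
Cox8b: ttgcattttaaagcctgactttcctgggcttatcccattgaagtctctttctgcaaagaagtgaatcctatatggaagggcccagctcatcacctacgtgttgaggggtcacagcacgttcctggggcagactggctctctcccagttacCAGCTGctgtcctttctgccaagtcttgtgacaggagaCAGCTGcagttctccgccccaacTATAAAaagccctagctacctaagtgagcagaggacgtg

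The ETS matches of Cox8a start 57 and 19 bases before the annotated start. The E-box matches of Cox8b start 100 and 62 bases before it and its TATAAA match 39 bases before it. Neither was particular to the family: in windows of 300 bases CAGCTG stood in 15.9% of the family and 15.1% of all genes' windows, and TATAAA in 8.70% and 14.2%. E-boxes are the kind of site that myogenic transcription factors bind and TATAAA the core of a TATA box, but a match of letters is not a binding site. Only the letters CAGCTG were searched for, and not other forms of the E-box, which either region may hold.

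Windows of 300 bases (250 before and 50 after the start) were found by symbol for 69 of the 79 genes and searched on both strands for 4 motifs of factors known to act on respiratory chain genes. The NRF1 motif (GCGCA and GCGC with any 1 base between) stood in 12 windows of the family (17.4%) and in 4.25% of all 33469 windows. These 33469 were not limited to the 13428 measured genes or to bright ones, whereas most of the family was bright. No share was computed over genes of like brightness, so a higher share is not shown to be particular to the family. For the ETS motif CCGGAAG, which GABPA binds, the shares were 30.4% (21 genes, among them Cox4i1, Cox5b, Ndufs1, Sdhb, Sdhd and Uqcrc2) and 8.75%. The YY1 motif AAGATGGCG was in 9 windows (13.0% against 1.73%) and the ERR motif AAGGTCA in 9 (13.0% against 4.61%). In all 39 of the 69 had at least 1 of these motifs, against 17.6% of all windows, and no matches of different motifs overlapped in a window of the family. Cox8b had none of the 4. The genes with a motif had a median difference of -0.030, from -0.10 to 0.086 (n = 39), and those measured without one -0.042, from -0.22 to 1.35 (n = 29).

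Cox6b2, known as the testis form of subunit 6b, was second to Cox8b in size, and it went the other way: 488 male and 419 female, -0.22 or 1.17-fold, from 1 probe with 1 spot. Its partner Cox6b1 was at 21.4 male and 20.3 female, -0.075. Both forms were dimmer on the female array, and Cox6b2 just passed its software error of 0.20.

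Cox6a2, the heart and muscle form of subunit 6a, was at 3.95 male and 4.18 female, 0.080, with its 2 probes at 0.12 and 0.044. Its partner Cox6a1 was at 4693 male and 4462 female, -0.073. The muscle form of this subunit thus lay within 1.06-fold where that of subunit 8 was past 1.5-fold. Cox4i2, the lung form of subunit 4 whose expression responds to oxygen, was at 242 male and 233 female, and Cox4i1 was at 2244 male and 2234 female. Cox7a2 was at 673 male and 670 female; its muscle form Cox7a1 and the testis form Cox7b2 had no matched probe. Cox8c, the testis form of subunit 8, was not well above background on either array.

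Ndufa4, now described as a subunit of complex IV in spite of its name, was at 1101 male and 1078 female. Its relative Ndufa4l2, which low oxygen induces, averaged 1.53 male and 1.49 female, but the probes disagreed, with 1.51 male and 1.92 female for the one and 1.55 male and 1.16 female for the other. No direction can be given for it, though its average counts among the 76 genes within 1.1-fold and the 62 lower on the female array. Both values lie in the dimmest 25% of genes.

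Since Cox8b and Cox6a2 mark heart and skeletal muscle, the levels of muscle and fat genes stand beside them. Of 17 measured striated muscle markers 1 was brighter by 1.5-fold or more in the female pool (1.5% of all genes) and none in the male pool (0.797%). Their median was 0.056, their range -0.35 to 0.61 and their summed scaled signal 514 male and 539 female. Tnnt1 alone made up 249 male and 279 female of these sums. The creatine kinase gene Ckm was the 1 past that fold, at 1.61 male and 2.45 female. The fast myosin gene Myh4 and the myosin light chain genes Myl1 and Myl2 did not count as measured, which asks for a signal well above background on both arrays; the actin gene Acta1 was at 3.49 male and 4.005 female, and the troponin gene Tnnc2 was at 6.41 male and 5.03 female. Fat markers, chosen because brown fat also carries Cox8b, had 3 of 7 genes measured: Elovl3 at 0.777 male and 1.42 female, Cidea at 7.19 and 5.49, and Cfd at 9.96 and 8.89, whereas Ucp1 and Adipoq did not count as measured. The female array was also the one with the higher choroid plexus markers, such as Ttr at 617 male and 9325 female. The part of any of these in the Cox8b difference was not tested.

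Complex V consists of the F1 head, which makes ATP, and a membrane part that conducts protons. The F1 genes ran from -0.073 to 0.026, with a median of -0.039. The alpha subunit gene Atp5f1a was at 3777 male and 3676 female, and the catalytic beta subunit gene Atp5f1b at 412 male and 415 female. The rotor genes were Atp5f1c, at 373 male and 363 female, Atp5f1d, at 401 male and 381 female, and Atp5f1e, at 735 male and 748 female. The F1 genes did not share a direction.

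The other 11 genes had a median of -0.046, and 10 of them were lower on the female array. Atp5pb, the b subunit of the stalk, was lowest at 480 male and 443.5 female, -0.11. Atp5if1, the inhibitor that stops ATP synthase from running backwards, was at 795 male and 737 female, -0.11. Atp5mg was next at 1549 male and 1464 female, but its probes gave -0.16 and -0.0053. Atp5po, which encodes the stalk subunit OSCP, was the exception, at 1699 male and 1803 female, 0.086. All 16 genes of complex V lay within 1.09-fold.

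The rotor ring of ATP synthase is built from a c subunit that several genes encode with the same mature protein. Atp5mc1 was at 1042 male and 1006 female, and Atp5mc2, over 4 probes, at 815 male and 797 female; Atp5mc3 had no matched probe. Both lay within 1.04-fold.

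Because the pools differ in sex, the X-linked members are of interest on their own. Ndufa1 was at 666 male and 661 female, Ndufb11 at 542 male and 519 female, and Cox7b at 682 male and 702 female. Their differences of -0.011, -0.064 and 0.041 lay inside the range of the other genes of their complexes, as described above, and all were under 5%.

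The genes that act beside the subunits were described from lists of the pathway, on which 87 genes were measured. None of the 87 was past 1.5-fold in either direction (2.29% of all genes), and 1, Cox20, differed by over 25%. Their median was 0.010 and 41 were lower on the female array, against 44.5% of all genes. Cytochrome c (Cycs, 338 male, 341 female), Cyc1, the cytochrome c1 of complex III that the name rule leaves out (1160 male, 1145 female), and Ndufab1, the acyl carrier protein of complex I (45.3 male, 42.7 female), were within 1.06-fold. The testis cytochrome c gene Cyct was dim, at 0.794 male and 0.936 female, and its 2 probes gave -0.14 and 0.62.

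Assembly factors had medians of 0.026 for complex I (15 genes, 10 higher on the female array), -0.0022 for complexes II and III (8 genes), -0.027 for complex IV (18 genes) and 0.056 for complex V (4 genes, all higher on the female array). Cox20, which helps mature a core subunit of complex IV, was dim, at 1.98 male and 2.74 female, 0.47. The complex I factor genes Dmac1 (43.4 male, 48.5 female) and Tmem186 (122 male, 135 female) were brighter in the female pool, by 1.12-fold and 1.11-fold. For complexes II and III the widest differences were those of Uqcc1 (-0.078) and Uqcc3 (-0.061). For complex IV Coa7 came after Cox20, at 33.9 male and 36.8 female, and for complex V Tmem70 (0.092) and Atpaf1 (0.056) were widest. The 4 factors of complex V differed by less than 1.07-fold each.

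Regulators of mitochondrial biogenesis and of mitochondrial DNA had a median of 0.066. Of the 16, 12 were brighter in the female pool and 4 were lower there, as 44.5% of all genes were. Only Esrra and Tfam lay in the brightest 25% of genes and only Nrf1 in the dimmest 25%. The rest lay between, and no median was computed for all genes of that range. The median was 0.016 over all genes, -0.0047 over the brightest 25% and 0.053 over the dimmest 25%. Gabpa, whose protein binds the ETS motif, was at 16.7 male and 19.95 female, 0.26, and the coactivator gene Ppargc1a at 8.24 male and 9.82 female, 0.25. Nrf1 was at 2.88 male and 2.91 female, Esrra at 186 male and 184 female, and Tfam, which packages mitochondrial DNA, at 71.5 male and 75.8 female. None of these 5 differed by over 25%, as 8.14% of all genes did.

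The tricarboxylic acid cycle list had a median of -0.0013 over 14 genes, with 7 on each side of 0. Idh2, the mitochondrial isocitrate dehydrogenase that uses NADP, was widest at 405 male and 482 female, 1.19-fold, followed by Idh3a at 42.0 male and 45.3 female. The genes of ATP, phosphate and creatine exchange had a median of -0.059, with 7 of 8 lower on the female array. The ATP carrier gene Slc25a5 was at 411 male and 376 female, 1.09-fold, and the creatine kinase gene Ckmt2 was dim, at 0.663 male and 0.719 female. All 14 cycle genes and all 8 exchange genes differed by less than 25%.

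**Figure D5:**
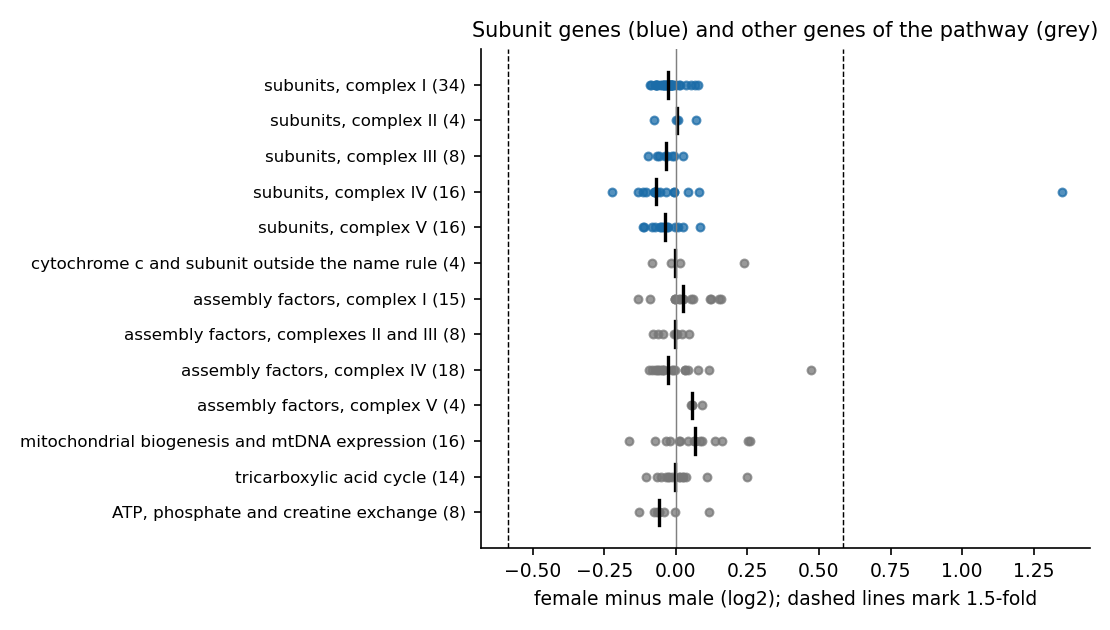
Female minus male difference (log2, horizontal axis) of the subunit genes by complex (blue) and of the other genes of the pathway by list (grey), with the number of measured genes in brackets; points are genes, black bars medians and dashed lines 1.5-fold. Cox8b, at 1.35, is the 1 point outside the dashed lines, and Cox20, at 0.47, is the widest of the grey points.

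Markers of the main cell types stood beside the subunit genes as follows. Neuron markers had a median of -0.049 (11 of 13 lower on the female array; summed signal 7319 male, 6918 female), with the neurofilament genes Nefl (-0.44), Nefm (-0.40) and Nefh (-0.39) the widest. The medians were, for astrocyte markers, -0.032 (5 of 9; 12015 and 11820) and, for oligodendrocyte markers, -0.19 (12 of 12; 2554 and 2174). The medians of ependymal markers (0.054, 6 genes) and of NTS and dorsal medulla markers (0.051, 9 genes) lay on the other side of 0. Over all genes 44.5% were lower on the female array. The subunit genes, at -0.034, were near the neuron and astrocyte medians and not near these 2. The part of cell makeup in the small shift of the family, whose direction hangs on the scaling, was not tested.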

How the data were processed

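The deposited scanner files hold linear spot intensity from Agilent's Feature Extraction software (version 11.5.1.1 per the file headers, 9.1 per the submitters' processing notes), with flags and other columns for background and outliers per the file headers. The processed signal is background-corrected. The authors' deposited table holds the same signal divided by 22.8 (male) and 23.4 (female), which sets the 75th percentile to 100; it is linear, with column medians of 19.4 and 19.6, and served as an alternative. From log2 of this signal the 75th percentile of its array (2277 male, 2345 female) was subtracted, over 58717 spots outside the controls. Spots with an outlier flag on either array (1 of 115 spots of the family) were left out, no spot was saturated, repeated spots and then measured probes of a gene were averaged on log2, and a probe was measured when well above background on both arrays. Of 45595 probes 21109 were named by accession through the RefSeq table of GRCr8, used for names and promoter windows only, since the array was designed on an older assembly. Of 109 protein-coding symbols that the name rule fits, 31 had no matched probe.

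With 1 array per sex no test was possible; precision is limited by the 2 arrays. Named genes were the tissue isoforms, core and complex II, III and F1 genes, the 3 highest and lowest of each complex, and, per pathway list, those past 1.5-fold or the 2 widest; a few further genes were added after their values were seen. The members and lists were chosen with earlier results of these data known. Calculations used Python 3.11.15, numpy 2.4.6, pandas 2.3.3, R 4.3.3 and limma 3.58.1, and were tested on simulated data. Some single-gene values are not reported here.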

Additional observations from a re-analysis of the deposited data

How the results depend on the processing

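No paired analysis was possible because a single array stood for each sex and nothing was tested. Cox8b was higher on the female array in the 11 other settings where it had a value, from 0.66 to 1.42. Not all of these could have changed it. With 1 probe and 1 spot it had to stay at 1.35 with no dim filter, the median or brightest probe, or flagged spots kept. The authors' table holds the same signal rescaled, and median scaling and spike-in centring move every gene by 1 step. Cox8b was 1.31 after quantile normalization and 1.30 after loess scaling. It was 0.66 with normexp and 0.86 without background correction, both on the spot median signal, as no spot mean was available. In the brighter part of the probes it had no value, which leaves 0 genes past 1.5-fold on the female side. Without the filter on dim probes 1 gene, Cox8c, was past 1.5-fold on the male side, on signals not well above background. In that setting 9.93% of all genes were past 1.5-fold in either direction. Centring on spike-in controls, chosen after seeing the data, adds 0.067 to every gene: the family median became 0.032, and those of complexes I to V 0.041, 0.070, 0.032, -0.0012 and 0.028. Under the other settings the family median ran from -0.066 (median scaling) to -0.017 (quantile and loess scaling), that of complex IV from -0.10 (median scaling) to -0.036 (normexp), and that of complex II changed sign, to -0.029 with median scaling; the cause was not tested. At 2-fold the count of 1 gene became 0 with normexp and without background correction. With normexp, no background correction, quantile and loess scaling 52, 52, 51 and 52 of 78 genes were lower on the female array. The shares over all genes were 46.1%, 42.0%, 49.8% and 50.2% in that order. With median scaling 69 of 78 were lower, where the share over all genes was 55.2%. Counting Ndufa4 and Ndufa4l2 with complex IV gave -0.059 for complex IV. Values of single genes other than Cox8b moved by over the spot SD in 95 of 921 cases, 73 of them with spike-in centring. Many of the 921 cases could not have moved. The 58 genes with 1 measured probe keep their value with the median or brightest probe, and the authors' table holds the same signal. The share of cases that moved is therefore no measure of how stable the genes were. None of these genes passed 1.5-fold, except Cox8c as above.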
